A study of Mus musculus with 40 samples.

Results

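The 10 genes described here encode the muscle enzymes that carry glucose through glycolysis and that build or break down glycogen. They are *Pfkm*, *Aldoa*, *Tpi1*, *Pgam2*, *Eno3* and *Pkm* for glycolysis, *Gpd1* for the branch from glycolysis to glycerol 3-phosphate, and *Pygm*, *Phka1* and *Gys1* for glycogen. The genes were chosen by name, and each was found on the array through the Entrez gene number of its probe set. All 10 were present among the 16475 probe sets that are not controls, and all 10 exceeded the filter of a mean signal intensity above 20, which 6479 probe sets passed.

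The arrays came from 20 male mice, labelled C56BL/6J (C57BL/6J in the study's methods), that had received a low fat diet (LFD) or a high fat diet (HFD), both based on palm oil, for 8 weeks. All mice had first eaten the low fat diet for 3 weeks from the age of 9 weeks, and were 20 weeks old when their muscles were taken. Quadriceps and gastrocnemius of each mouse were hybridized separately, which gave 4 groups of 10 arrays (LFD quadriceps, LFD gastrocnemius, HFD quadriceps and HFD gastrocnemius). The study asked how the transcriptomes of these muscles differ and whether the fat content of the diet changes them. The extraction text in the labels names the quadriceps for every array, so the muscle was taken from the sample names. The median signal per array lay between 8.8 and 9.4, and no arrays held identical values.

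Skeletal muscle draws on glycogen and glucose for rapid contraction. Glycogen phosphorylase, the product of *Pygm*, releases glucose units from glycogen once phosphorylase kinase, of which *Phka1* encodes the muscle regulatory subunit, has activated it, and *Gys1* encodes the synthase that rebuilds the store. Phosphofructokinase (*Pfkm*) sets the pace of glycolysis, aldolase (*Aldoa*) splits the sugar, triose phosphate isomerase (*Tpi1*) interconverts the resulting trioses, and phosphoglycerate mutase (*Pgam2*), enolase (*Eno3*) and pyruvate kinase (*Pkm*) complete the path to pyruvate. Glycerol-3-phosphate dehydrogenase (*Gpd1*) works in the shuttle that moves electrons from the cytosol to the mitochondria, and is also abundant in fat cells. Fast type IIb fibers, marked by the myosin gene *Myh4*, are known for high glycolytic capacity, and slow type I fibers, marked by *Myh7*, for oxidative metabolism.

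The sequences upstream of 4 of these genes are shown because *Pgam2*, *Eno3* and *Tpi1* varied together from mouse to mouse and *Phka1* varied with *Myh4*, as described further on. Each is the 250 bases before the gene start in RefSeq (GRCm38.p6), written 5′ to 3′ on the strand of the gene. Capitals mark CAGCTG, the E-box form bound by muscle regulatory factors of the MyoD family, and matches to the MEF2 motif, both searched on both strands.
Pgam2, chr11:5803797-5804046, minus strand: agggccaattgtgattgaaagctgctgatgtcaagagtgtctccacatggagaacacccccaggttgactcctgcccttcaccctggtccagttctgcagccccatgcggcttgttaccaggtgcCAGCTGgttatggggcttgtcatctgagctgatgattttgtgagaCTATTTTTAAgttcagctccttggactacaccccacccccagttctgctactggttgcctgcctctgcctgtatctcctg
Eno3, chr11:70656926-70657175, plus strand: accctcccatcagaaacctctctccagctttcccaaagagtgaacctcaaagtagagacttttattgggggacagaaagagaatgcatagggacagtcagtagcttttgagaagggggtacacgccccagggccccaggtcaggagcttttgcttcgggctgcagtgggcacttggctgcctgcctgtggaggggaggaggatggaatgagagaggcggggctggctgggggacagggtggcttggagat
Tpi1, chr6:124814159-124814408, minus strand: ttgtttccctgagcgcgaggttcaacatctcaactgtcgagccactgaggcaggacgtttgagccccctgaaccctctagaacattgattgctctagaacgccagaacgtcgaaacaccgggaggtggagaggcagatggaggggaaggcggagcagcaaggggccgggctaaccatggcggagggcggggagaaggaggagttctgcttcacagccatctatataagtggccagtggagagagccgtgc
Phka1, chrX:102644247-102644496, minus strand: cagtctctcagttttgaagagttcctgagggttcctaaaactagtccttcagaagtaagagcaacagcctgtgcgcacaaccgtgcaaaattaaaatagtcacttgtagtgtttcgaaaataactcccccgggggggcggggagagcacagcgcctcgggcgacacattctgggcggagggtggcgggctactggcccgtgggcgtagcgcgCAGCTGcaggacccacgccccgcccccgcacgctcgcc

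RefSeq promoter windows were found for 9 of the 10 genes, with 15 windows in all because some genes have several starts. CAGCTG occurred in 5 of these 15 windows (1 each of *Pgam2*, *Pkm*, *Pygm*, *Gys1* and *Phka1*), and in 13.0% of all 32841 windows of the same length. The MEF2 motif was found in the *Pgam2* window alone among the 15, and in 2.92% of all windows. These matches describe letters in the windows and not bound sites, and the genes that varied together did not all hold the same motif.

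All 10 transcripts were readily measured in both muscles and under both diets. *Pfkm* ranged from 11693.9 to 14684.4 signal intensity units over the 40 arrays, and *Tpi1* from 9566.8 to 11620.9. Among the later enzymes of glycolysis, *Pgam2* ranged from 9559.3 to 11431.8, *Eno3* from 14655.2 to 16979.8 and *Pkm* from 8363.2 to 11130.3. The *Pkm* probe set cannot separate the spliced forms of pyruvate kinase. *Pygm* lay between 9119.8 and 11089.9 and *Gys1* between 813.7 and 1207.4. For *Eno3* the highest array was 1.16 times the lowest, whereas for *Gpd1* it was 1.86 times the lowest.

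Variation between mice of the same group was small for most of these genes. The within-group SD on the log2 scale was 0.05 for *Eno3*, *Pgam2* and *Pygm*, 0.06 for *Tpi1*, 0.07 for *Pfkm*, 0.08 for *Aldoa* and 0.10 for *Pkm*. *Gys1* (0.14), *Phka1* (0.19) and *Gpd1* (0.24) varied more. The median SD was 0.08 among the 123 probe sets with a mean signal over 5000, and 0.12 among the 597 between 1000 and 5000. *Phka1*, *Gpd1*, *Pkm* and *Aldoa* exceeded the median of their intensity class, and *Eno3*, *Pgam2*, *Pygm*, *Tpi1* and *Pfkm* lay under it. *Gys1* lay under the median of 0.17 for probe sets between 100 and 1000. Aldolase stood at the top end of the scale, at ranks 2 to 9 of its array, and its 40 arrays held 32 distinct values. Quantile normalization gives arrays the same set of values. Most other members also stood near the top, at ranks 11 to 16 for *Eno3*, 16 to 21 for *Pfkm* and 20 to 33 for *Tpi1*. *Pgam2* (21 to 34), *Pkm* (23 to 49) and *Pygm* (25 to 37) followed. Whether brightness or normalization narrowed their spread or their group differences was not tested.

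**Figure D1:**
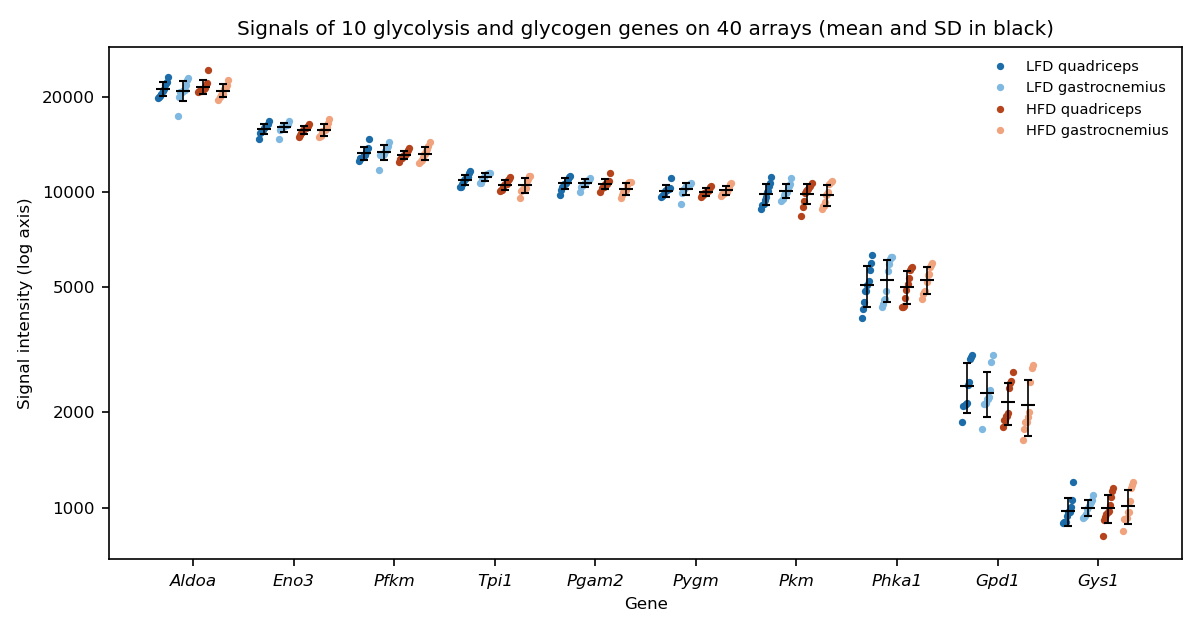
Signal intensity (log axis) of each of the 10 genes on every array, with the mean and SD of each group of 10 in black. The 4 groups overlap for every gene, and *Gpd1* and *Phka1* spread most widely, from 1641.8 to 3048.7 and from 3980.2 to 6304.0.

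The first comparison asked whether these enzymes differ between the muscles. None of the 10 genes was differentially expressed between gastrocnemius and quadriceps, in LFD or in HFD mice, when a call required a change of more than 1.3-fold and an FDR below 0.05 (limma), and none reached an unadjusted p under 0.05 in either diet. In the background, 163 of 6479 probe sets (2.52%) passed in LFD mice and 224 (3.46%) in HFD mice, and an unadjusted p under 0.05 was reached by 19.0% and 18.7%. The 10 log2 fold changes of gastrocnemius over quadriceps ran from -0.07 to 0.06 in LFD mice, with a median of 0.02 against -0.01 over all probe sets, and from -0.05 to 0.08 in HFD mice, with a median of -0.003 against -0.02. All 20 of the 95% intervals lay inside a 1.3-fold difference in either direction, and 7 of 10 in each diet lay inside a 1.1-fold difference. These intervals come from fits that do not pair the muscles of a mouse. With the mouse as a fixed block the SE of *Gpd1* in LFD mice was 0.056 in place of 0.102. That of *Pfkm* in HFD mice was 0.044 in place of 0.036.

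Phosphofructokinase illustrates how close the signals of the muscles were. In LFD mice *Pfkm* had a median signal of 13069.0 in the quadriceps (12496.6 to 14684.4) and of 13294.9 in the gastrocnemius (11693.9 to 14371.4). Both ranges overlapped over most of their width, and the gastrocnemius was higher in 6 of 10 mice. The fold change was 1.004 with a 95% interval from 0.947 to 1.065. In HFD mice it was 1.01 (0.958 to 1.064).

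The groups also overlapped for the glycogen enzymes. The LFD mean of *Pygm* was 10063.4 ± 424.2 for quadriceps and 10229.4 ± 449.6 for gastrocnemius (SD, n = 10), a fold change of 1.02 (0.96 to 1.07). That of *Gys1* was 974.2 ± 97.8 for quadriceps and 996.7 ± 58.1 for gastrocnemius, a fold change of 1.03 (0.95 to 1.11). *Phka1* had the largest estimated difference of the 10 genes in HFD mice, and *Gpd1* in LFD mice (log2 -0.07 ± 0.10 SE). The quadriceps signals of *Phka1* in HFD mice had a median of 4980.9 (4308.1 to 5770.4) and its gastrocnemius signals a median of 5301.8 (4570.8 to 5925.8). These groups overlapped, 7 of 10 mice were higher in the gastrocnemius, and the fold change of 1.06 had an interval from 0.95 to 1.17 and an adjusted p of 0.648 by limma.

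The muscles themselves differed clearly in fiber markers on the same arrays. All 6 slow fiber markers were called higher in the gastrocnemius in both diets, with median log2 fold changes of 2.71 in LFD and 3.00 in HFD mice. Their summed signal ran from 262.7 to 4504.8 in LFD quadriceps and from 3497.6 to 8686.0 in LFD gastrocnemius, and from 249.5 to 2773.7 and 3814.3 to 7420.0 in the HFD muscles, which did not overlap. Of 10 fast fiber markers only the type IIa myosin *Myh2* was called, with log2 fold changes of 0.44 and 0.49, and the median of the list was -0.02 in LFD and -0.03 in HFD mice. *Myh4* had a median of 13276.9 in LFD quadriceps (9494.4 to 17470.4) and of 11221.1 in LFD gastrocnemius (7618.5 to 17209.2). In whole muscle, fewer fibers of a type and less RNA per fiber cannot be told apart. Of the tested adipocyte markers, 3 of 5 were called lower in the gastrocnemius under LFD and 1 of 5 under HFD, and the estimates of all 5 were negative in both diets (log2 -1.38 to -0.14 and -1.43 to -0.87). In HFD mice 3 of 5 tested neutrophil markers (log2 -4.34 to -2.07 over all 5) and 1 of 2 red cell precursor markers (-2.003 and -0.859) were also called lower, and 3 of 3 tested Schwann cell markers were higher in both diets. Their part in the enzyme values was not tested.

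**Figure D2:**
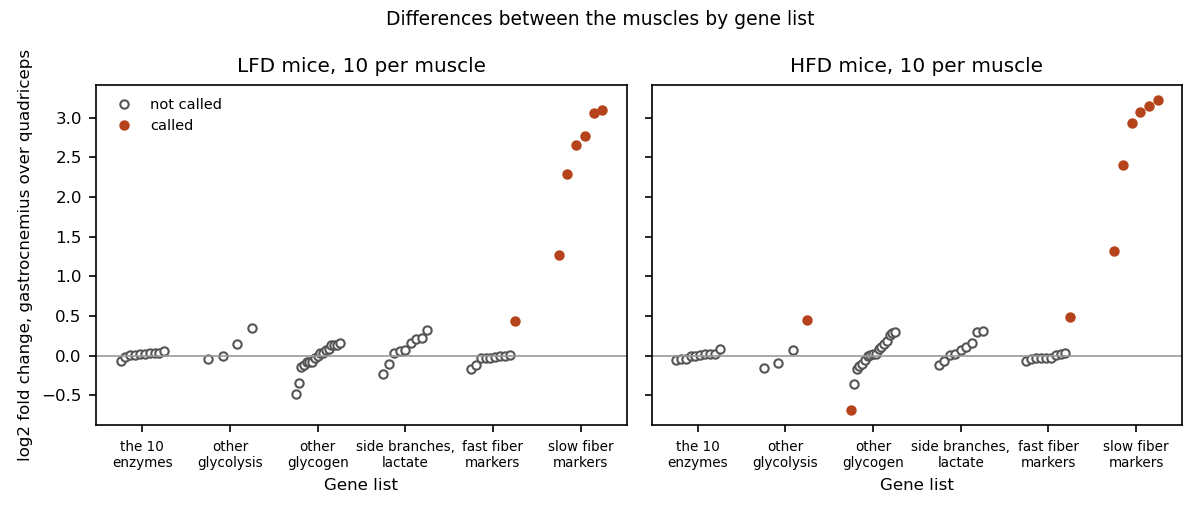
Log2 fold change of gastrocnemius over quadriceps for each tested gene of 6 lists, in LFD mice (left) and HFD mice (right), with called genes (over 1.3-fold, FDR below 0.05) filled. The 10 enzymes lie between -0.07 and 0.08, while all 6 slow fiber markers are called higher, by 1.27 to 3.22.

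The second comparison asked whether the high fat diet changed these enzymes. None of the 10 was called in the quadriceps or in the gastrocnemius. The background was also sparse, with 4 of 6479 probe sets (0.0617%) called in the quadriceps and 14 (0.216%) in the gastrocnemius. The median log2 fold change of HFD over LFD was -0.01 for the 10 genes and -0.01 for all probe sets in the quadriceps, and -0.02 for both in the gastrocnemius. In the quadriceps none of the 10 had an unadjusted p under 0.05 (5.68% of all probe sets did). In the gastrocnemius 1 of 10 did, against 581 of 6479 probe sets (8.97%).

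That gene was *Tpi1*. Its gastrocnemius signals had a median of 11213.0 in LFD mice (10658.3 to 11460.4) and of 10265.2 in HFD mice (9566.8 to 11226.9). The LFD values were the more tightly grouped and mostly the higher, and the groups overlapped. The fold change was 0.94 with an interval from 0.90 to 0.98 (log2 -0.09 ± 0.03 SE), the unadjusted p was 0.00644 and the adjusted p 0.232 by limma. In the quadriceps, medians were 10941.2 (10322.0 to 11620.9) in LFD and 10536.5 (10031.6 to 11150.1) in HFD mice, a fold change of 0.96 (0.92 to 1.01).

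*Gpd1* had the largest estimated differences between the diets and the widest intervals. In the quadriceps its median was 2296.9 in LFD mice (1867.9 to 3048.7) and 1973.4 in HFD mice (1795.4 to 2686.9). The HFD values were lower on average but overlapped the LFD values over nearly their whole range. The log2 fold change was -0.17 ± 0.11 (SE), which is a fold of 0.89 with an interval from 0.768 to 1.035 and an adjusted p of 0.998 by limma. The interval of this gene reached past a 1.3-fold decrease, and those of the other 9 in the quadriceps did not. In the gastrocnemius the median was 2205.4 in LFD mice (1772.1 to 3046.3) and 1905.6 in HFD mice (1641.8 to 2836.2), a fold of 0.91 (0.78 to 1.05).

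Several of the remaining members had narrow diet intervals. The fold change of HFD over LFD was 0.99 (0.94 to 1.04) for *Pfkm*, 0.993 (0.952 to 1.035) for *Eno3* and 0.993 (0.951 to 1.036) for *Pygm* in the quadriceps. *Pgam2* in the gastrocnemius was at 10643.0 ± 306.9 in LFD and 10212.1 ± 416.9 in HFD mice, a fold of 0.959 (0.919 to 1.001) with an unadjusted p of 0.0555 by limma. The synthase *Gys1* and the phosphorylase kinase subunit *Phka1* had diet folds between 0.992 and 1.02 in both muscles, with intervals reaching from 0.882 to 1.132. Over the 5 tested adipocyte markers the median log2 change was 0.53 in the quadriceps (-0.47 to 1.58) and 0.34 in the gastrocnemius (-0.66 to 0.77). The markers thus went in both directions and none was called. Their part in the *Gpd1* values was not tested.

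The interaction of diet and muscle asks whether the difference between the muscles depended on the diet. None of the 10 genes and none of the 6479 probe sets passed an FDR under 0.05 (0% of the background, limma). At an unadjusted p under 0.05 the count was 0 of 10 for the enzymes and 118 of 6479 (1.82%) for all probe sets. The log2 estimates for the 10 genes ran from -0.05 to 0.02, and their intervals from -0.28 to 0.33.

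**Figure D3:**
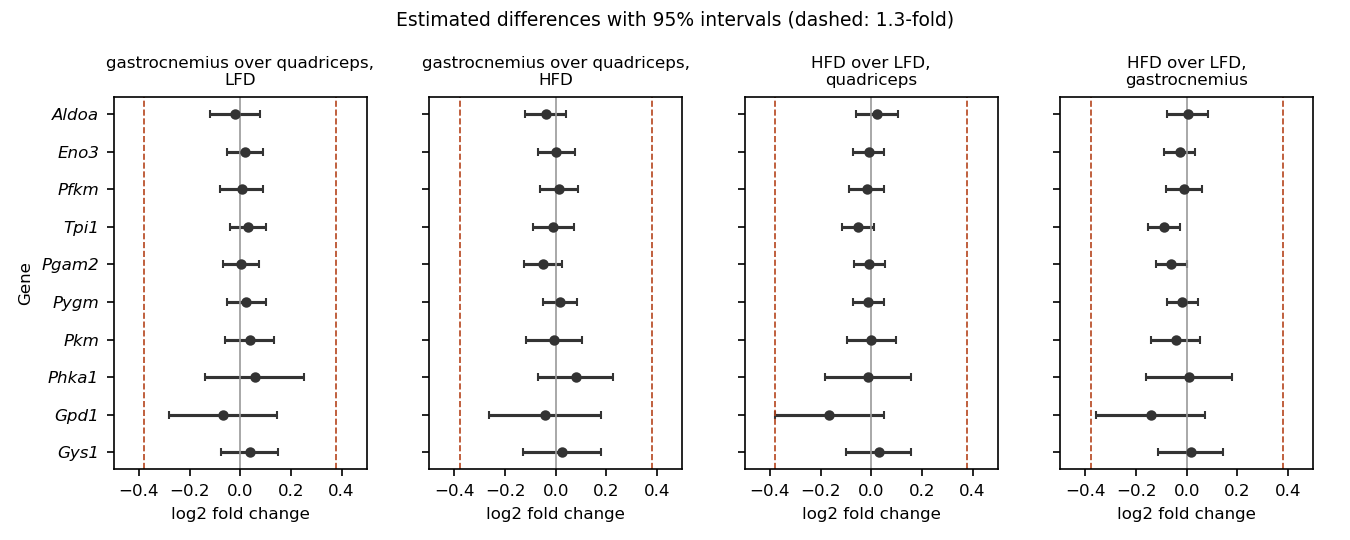
Estimated log2 fold change with its 95% interval for each gene in 4 comparisons of 10 arrays against 10. All intervals lie inside the dashed lines at 1.3-fold except that of *Gpd1* for HFD over LFD in the quadriceps, which reaches a fold of 0.768, and only the *Tpi1* interval in the gastrocnemius lies wholly on one side of 0.

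The other genes of these pathways were examined from lists of 19 glycolysis enzymes, 24 glycogen enzymes and regulators, and 14 genes of side branches, regulatory switches and lactate transport. Of these, 4, 17 and 9 exceeded the signal filter. Several listed genes, among them *Hk2*, *Gapdh*, *Pgk1*, *Eno1* and *Ldha*, had no probe set of their own in the table and are not analysed here. The isozymes of other tissues, including *Pfkl*, *Pfkp*, *Aldoc*, *Eno2*, *Pklr*, *Gys2* and *Pygb*, were on the table with mean signals at or under 20.

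Of these 30 tested genes, 2 were called between the muscles of HFD mice and none in LFD mice (against 3.46% and 2.52% of all probe sets), and neither diet comparison called any. At an unadjusted p under 0.05 by limma there were 9 of 30 in LFD and 8 of 30 in HFD mice between the muscles (19.0% and 18.7% of all probe sets), and 5 and 4 of 30 between the diets in quadriceps and gastrocnemius (5.68% and 8.97%). *Ldhb*, the heart-type subunit of lactate dehydrogenase that is typical of oxidative fibers, was higher in the gastrocnemius of HFD mice. Its signals had a median of 1172.6 in the quadriceps (748.1 to 1735.9) and of 1609.6 in the gastrocnemius (1245.6 to 1865.6). The gastrocnemius was higher in 9 of 10 mice, although the ranges overlapped. The fold change was 1.37 (1.14 to 1.64) with an adjusted p of 0.0303 by limma, and in LFD mice it was 1.27 (1.01 to 1.59) with an adjusted p of 0.228. Leaving out mouse 143, 150, 151 or 158 ended the call of *Ldhb*, with an adjusted p of at most 0.0937 by limma.

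*Pygl*, the liver form of glycogen phosphorylase, was lower in the gastrocnemius of HFD mice, with signals close to the filter. Its median was 22.8 in the quadriceps (16.1 to 36.3) and 14.05 in the gastrocnemius (9.0 to 23.2), and 9 of 10 mice were lower in the gastrocnemius. The fold was 0.62 (0.50 to 0.78) with an adjusted p of 0.00879 by limma. With an offset of 16 added to the signals the log2 fold change went from -0.68 to -0.37 and the call ended, and with a filter of 50 the gene was not tested. In LFD mice the fold was 0.72 (0.50 to 1.03) with an adjusted p of 0.321. The summed signal of 7 neutrophil markers ran from 32.6 to 12732.7 in the same quadriceps and from 34.8 to 40.7 in the gastrocnemius. Its part in the *Pygl* value was not tested.

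A further 3 pathway genes passed the FDR alone in HFD mice, a criterion that 429 probe sets (6.62%) met, with fold changes under 1.3. The glycogen branching enzyme *Gbe1* was higher in the gastrocnemius by 1.23-fold (1.11 to 1.35) and in 10 of 10 mice. *Ugp2*, which makes the UDP-glucose used for glycogen, was higher by 1.14-fold (1.062 to 1.225), also in 10 of 10 mice, and *Slc16a1*, a lactate transporter, by 1.24-fold (1.095 to 1.409). *Slc16a1* lost the FDR without mouse 143, 144, 149, 150, 157 or 158 (adjusted p of at most 0.0904 by limma) and with no filter on low signals (0.0503), and *Ugp2* without mouse 146 (0.0558). In LFD mice the corresponding folds were 1.096 (0.964 to 1.246), 1.114 (1.041 to 1.192) and 1.117 (1 to 1.248). Whether these differences depended on diet was tested by the interaction, which gave an adjusted p of 1 for each of the 5 genes by limma. For *Phkb*, the beta subunit of phosphorylase kinase, the fold in LFD mice was 1.09 (1.035 to 1.155) with an adjusted p of 0.0514. *Stbd1*, which binds glycogen, had folds of 0.79 (0.67 to 0.93) and 0.78 (0.67 to 0.91) with adjusted p values of 0.0932 and 0.0542. Of the side branch genes, *Fbp2*, the muscle fructose bisphosphatase, had a fold of 1.21 (1.082 to 1.345) for HFD over LFD in the quadriceps with an adjusted p of 0.212.

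Differences between individual mice were then examined within each muscle, since the groups hardly differed. Log2 signals were expressed relative to the mean of their own diet group, and each pair of members, and each member with *Myh7*, *Myh4* and the adipocyte gene *Adipoq*, was correlated over the 20 mice of a muscle. This gave a family of 150 relations with 2-sided permutation p values adjusted over the family. In the gastrocnemius *Gpd1* fell into separate clusters, with 5 arrays from 2505.1 to 3046.3 (2 LFD and 3 HFD mice) and 15 from 1641.8 to 2352.7, so its 12 relations there are not given over all mice. Of the remaining 138 relations 37 passed an adjusted p of 0.05, of which 33 were positive. Among pairs of members 13 of 45 passed in the quadriceps and 13 of 36 in the gastrocnemius, all positive, and 7 pairs passed in both muscles. Without the 2 mice farthest from the median, 25 of the 138 passed, and 7 of 45 and 12 of 36 pairs of members. The share of other pairs of probe sets that pass was not computed, so these counts have no background beside them. The median absolute r of a member with all other tested probe sets ran from 0.22 to 0.38 in the quadriceps. In the gastrocnemius, *Gpd1* aside, it ran from 0.265 to 0.383.

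Several glycolytic enzymes varied closely together in the gastrocnemius. *Pgam2* and *Eno3*, which catalyze consecutive steps, had r = 0.887 and rho = 0.917 (permutation p = 1e-05 for both, the smallest the resampling can give, adjusted p = 0.00075 for both). The relation held within each diet (r = 0.962 in LFD and 0.847 in HFD mice) and without the 2 mice farthest from the median of *Pgam2* (r = 0.837). *Pgam2* and *Tpi1* had r = 0.851 and rho = 0.869 (permutation p = 2e-05 and 0.0001, adjusted p = 0.00075 and 0.0025), with r = 0.656 in LFD, 0.936 in HFD and 0.884 without the farthest mice. *Pfkm* and *Eno3* had r = 0.854 and rho = 0.818 (permutation p = 2e-05 and 6e-05, adjusted p = 0.00075 and 0.00225), with r = 0.867 in LFD, 0.862 in HFD and 0.721 without the farthest mice. LFD mouse 142 stood apart as the lowest of its group for both *Pfkm* and *Eno3*. That mouse enters each LFD r given here, and is among the 2 farthest mice left out in each pair. In the quadriceps the r of these pairs was 0.634, 0.527 and 0.717, with adjusted p values of 0.02, 0.0618 and 0.00722 by permutation.

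The phosphorylase kinase subunit followed the type IIb myosin. In the gastrocnemius *Phka1* and *Myh4* had r = 0.863 and rho = 0.890 (permutation p = 1e-05 for both, adjusted p = 0.00075 for both), with r = 0.938 in LFD, 0.742 in HFD and 0.847 without the 2 mice farthest from the median of *Myh4*. In the quadriceps r was 0.620 and rho 0.660 (permutation p = 0.0038 and 0.00293, adjusted p = 0.0184 and 0.0163), with r = 0.617 in LFD, 0.640 in HFD and 0.640 without the farthest mice. *Phka1* and *Myh7* had r = -0.652 and rho = -0.633 in the gastrocnemius (permutation p = 0.00338 and 0.00477, adjusted p = 0.0175 and 0.0231), with r = -0.691 in LFD, -0.613 in HFD and -0.637 without the farthest mice. *Gpd1* and *Myh4* in the quadriceps had r = 0.714 and rho = 0.750 (permutation p = 0.00046 and 0.00045, adjusted p = 0.00575 and 0.0045), with r = 0.750 in LFD, 0.693 in HFD and 0.716 without the farthest mice. None of the 10 relations of a member with *Adipoq* passed in the quadriceps, that of *Gpd1* included. In the gastrocnemius 1 of 9 did, that of *Aldoa* (r = 0.575, rho = 0.568, permutation p = 0.00453 and 0.0113, adjusted p = 0.02 and 0.0436), with r = 0.734 in LFD, 0.483 in HFD and 0.580 without the farthest mice, when its adjusted p was 0.0992.

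*Aldoa* was the only member with a negative relation to *Myh4* that passed. In the quadriceps its r was -0.609 (permutation p = 0.00855, adjusted p = 0.0309) and its rho -0.377 (permutation p = 0.112, adjusted p = 0.200). The relation rested on the 2 mice farthest from the median of *Myh4*, since r was -0.203 without them, -0.385 within LFD and -0.839 within HFD mice. HFD mouse 145 had the highest *Aldoa* signal (24234.3) and the lowest *Myh4* signal (7762.9) among the quadriceps of its group.

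A control ratio that is read as a measure of RNA quality moved with several of these genes. The ratio of the 3′ to the 5′ probe sets for beta-actin, controls placed on the array, lay between 1.2 and 1.5 on all 40 arrays, with group medians of 1.36 to 1.4. A higher ratio is known to accompany shorter or more degraded RNA. Whether the ratio followed RNA quality or the fiber content of the samples was not tested. The 5 gastrocnemius arrays with high *Gpd1* had ratios from 1.2 to 1.3 and the other 15 from 1.34 to 1.44, without overlap. In the gastrocnemius the log2 ratio, also relative to the diet mean, correlated with *Gys1* (r = -0.763, rho = -0.758, permutation p = 9e-05 and 0.00058, adjusted p = 0.00066 and 0.00346 over 24 relations), with *Pkm* (r = -0.711, rho = -0.788, permutation p = 0.00063 and 0.00018, adjusted p = 0.00252 and 0.00216) and with *Phka1* (r = -0.634, rho = -0.602, permutation p = 0.00163 and 0.00423, adjusted p = 0.00489 and 0.0161). Within LFD and HFD mice r was -0.717 and -0.867 for *Gys1*, -0.610 and -0.813 for *Pkm*, and -0.667 and -0.614 for *Phka1*, and without the 2 arrays farthest from the median ratio it was -0.757, -0.828 and -0.696. *Tpi1* (r = -0.585, rho = -0.585, permutation p = 0.00676 and 0.0133, adjusted p = 0.018 and 0.029), *Myh4* (r = -0.740, rho = -0.716, permutation p = 0.0001 and 0.00042, adjusted p = 0.00066 and 0.00336) and *Myh7* (r = 0.544, rho = 0.541, permutation p = 0.016 and 0.0169, adjusted p = 0.0349 and 0.0338) also passed. For these r was -0.506, -0.792 and 0.899 in LFD mice, -0.679, -0.678 and 0.135 in HFD mice, and -0.537, -0.657 and 0.538 without the 2 farthest arrays. In the quadriceps 3 arrays stood apart in the ratio, and no r is given.

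With the actin ratio taken out of both measures, a step added after the data were examined, 11 of the 138 relations passed an adjusted p of 0.05 in place of 37. Its part in the relations was not tested beyond this. The 11 include *Aldoa* and *Pkm* in the quadriceps, a negative relation that had not passed before. Its r was -0.514 before and -0.668 after (adjusted p = 0.0702 and 0.0424 by permutation). As measured, r was -0.279 in LFD, -0.781 in HFD and -0.181 without the 2 mice farthest from the median of *Aldoa*. The relations of *Pgam2*, *Eno3*, *Tpi1* and *Pfkm*, and of *Phka1* with *Myh4*, that are given above for the gastrocnemius passed again, with r = 0.855 for *Pgam2* and *Eno3*, 0.806 for *Pgam2* and *Tpi1*, 0.813 for *Pfkm* and *Eno3*, and 0.758 for *Phka1* and *Myh4*. In the quadriceps the 3 arrays apart in the ratio enter this step. The values and adjusted p there, which the count of 11 includes, are therefore given as a description only. They were r = 0.625 for *Gpd1* and *Myh4*, 0.753 for *Pfkm* and *Tpi1*, 0.653 for *Pkm* and *Phka1*, -0.787 for *Aldoa* and *Myh4*, and 0.506 for *Phka1* and *Myh4*. Of these, *Phka1* with *Myh4* alone did not pass (adjusted p = 0.0867 by permutation). *Pfkm* with *Eno3* (r = 0.548, adjusted p = 0.0802 by permutation) and *Pgam2* with *Eno3* (r = 0.517, adjusted p = 0.0867) also no longer passed in the quadriceps. In the gastrocnemius r was -0.474 for *Phka1* and *Myh7* and 0.535 for *Pkm* and *Gys1*, which had been 0.786, and neither passed (adjusted p = 0.0867 for both by permutation).

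**Figure D4:**
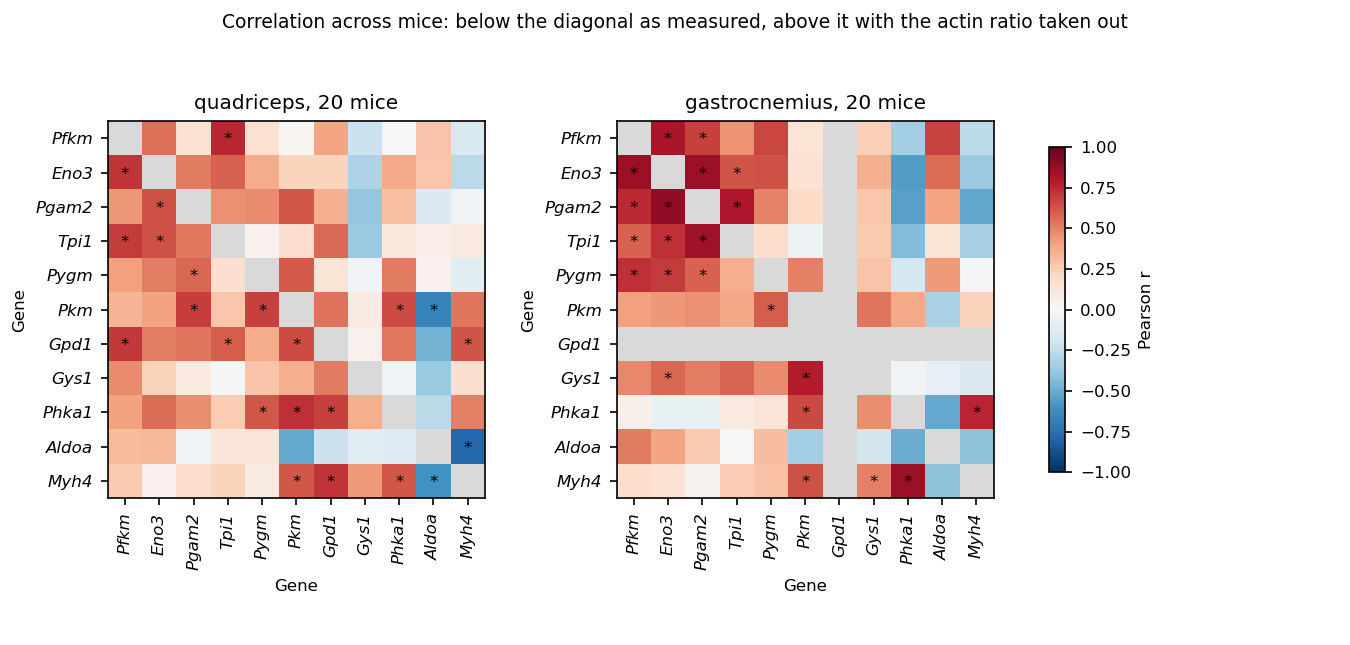
Pearson r across 20 mice for pairs of the 10 genes and *Myh4*, below the diagonal as measured and above it with the actin 3′ to 5′ ratio taken out, with stars at an adjusted p under 0.05 and grey where no r is given. Above the diagonal of the quadriceps, values and stars are a description only. In the gastrocnemius *Pgam2* with *Eno3* and with *Tpi1*, and *Pfkm* with *Eno3*, are dark on both sides of the diagonal, while *Pfkm* with *Tpi1* (0.587 below, 0.446 above) and the *Gys1* and *Pkm* relations fade above the diagonal.

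**Figure D5:**
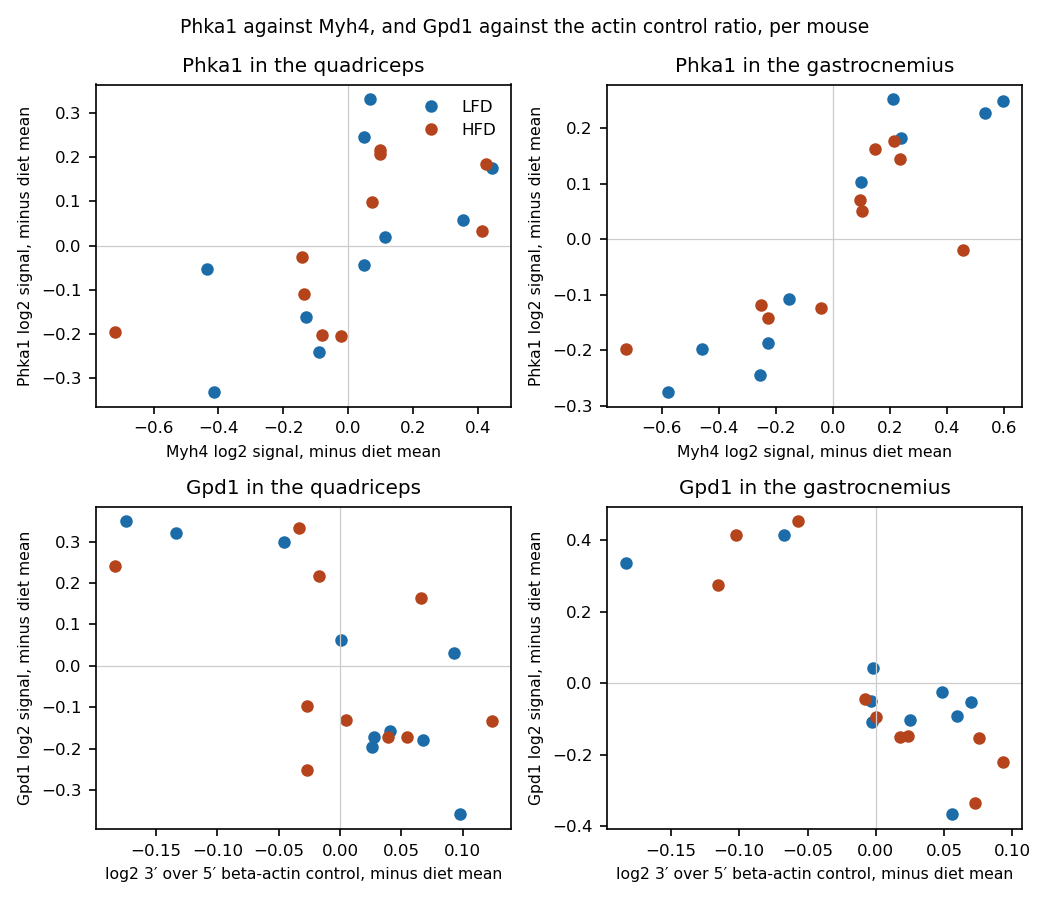
Log2 signals per mouse, minus the mean of its diet group, for *Phka1* against *Myh4* (top) and *Gpd1* against the actin control ratio (bottom) in each muscle. *Phka1* rises with *Myh4* (r = 0.620 in the quadriceps and 0.863 in the gastrocnemius), and the 5 high *Gpd1* arrays of the gastrocnemius are those with the 5 lowest ratios.

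To see whether a mouse with a high value in one muscle also had one in the other, each member was correlated between the muscles over the 20 mice, a set of 10 relations chosen after the data were examined. *Phka1* had r = 0.614 and rho = 0.582 (permutation p = 0.00823 and 0.0122, adjusted p = 0.0823 and 0.122), with r = 0.739 in LFD, 0.382 in HFD and 0.526 without the 2 farthest mice. None of the 10 passed an adjusted p of 0.05. *Tpi1* had r = 0.789 in LFD and 0.256 in HFD mice, and the difference between the diets was not tested. By another measure, the deviations of all tested probe sets also went together more in LFD mice. Their median correlation between the muscles of a mouse was 0.388 in LFD and -0.0689 in HFD mice.

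The genes whose quadriceps profiles were most like those of the members, by Pearson r over 20 arrays relative to diet means, are given as a description. For *Phka1* they were *Cdk19* (0.943), *Bin1* (0.929) and *Mdm2* (0.914), and for *Gpd1* *Ghr* (0.947), *Smad3* (0.935) and *Dnajb12* (0.929). For *Pygm* the closest was *Tnni2* (0.859), a fast troponin, for *Gys1* *Uqcrc1* (0.853), a subunit of respiratory complex III, and for *Aldoa* *Ndufv3* (0.861), a subunit of complex I. In the gastrocnemius the r of these pairs ran from 0.634 to 0.876, without those of *Gpd1*, which fell into separate clusters there. The others of these 3 members were *Cacng1* and *5031439G07Rik* for *Pygm*, *Wdr77* and *Tom1l2* for *Gys1*, and *Mrpl55* and *Cox19* for *Aldoa*. For *Pfkm* the 3 closest were *Gtf2f1*, *Bves* and *Sgca*, for *Pgam2* *Hras*, *Cog4* and *Tmod4*, for *Eno3* *Pitpna*, *Map2k1* and *Marchf5*, for *Pkm* *Cct7*, *Rab12* and *Anxa6*, and for *Tpi1* *Tcp1*, *Sod1* and *Smim7*. These further pairs had r from 0.751 to 0.909 in the quadriceps and from 0.354 (*Pygm* and *Cacng1*) to 0.897 (*Pfkm* and *Sgca*) in the gastrocnemius. *Gpd1* reached an absolute r of 0.7 with 12.4% of the 6478 other tested probe sets in the quadriceps and *Phka1* with 7.72%, against 0.34% for *Pgam2*. In the gastrocnemius the share was 7.44% for *Phka1*, 5.76% for *Pgam2*, 10.1% for *Eno3* and 10.5% for *Pfkm*. The points of each r share their array, and with it the RNA preparation.

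*Gapdh* has no probe set of its own in the analysed table, but the array carries 3 control probe sets for it at the 3′ end, the middle and the 5′ end. The 3′ set had group medians from 16524.2 to 16924.3 and a range of 15705.1 to 18164.1 over all arrays. The 4 groups overlapped in each of the 3 sets, and they were not part of the tests.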

How the data were processed

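RNA of quadriceps and gastrocnemius from 20 mice was hybridized to 40 Affymetrix mouse genome arrays. The authors redefined the probe sets by Entrez gene, quantile normalized the arrays and estimated expression with GC-RMA. The deposited values are intensities on a linear scale, and precision is limited by how many arrays there are. Of the probe sets, 64 controls were left out, 16229 were named by RefSeq (GRCm38.p6) 28 by the platform annotation alone and 218 stayed unnamed. The members, gene lists and tests were chosen with earlier results of these data known. Log2 intensities were tested with limma 3.58.1 in R 4.3.3 on 6479 probe sets with a mean over 20, with Benjamini-Hochberg adjustment over all of them. Muscles were compared within each diet, and diets and the interaction in a fit of all 4 groups, in each case without a mouse block. All members were named, and of each other list the called genes and up to 4 with the smallest adjusted p. Pearson and Spearman correlations were tested with 100000 permutations within diets (numpy 2.4.6, scipy 1.17.1). A gap of over 0.25 of the range, with at least 3 arrays on each side, was taken to part clusters. Quadriceps and gastrocnemius of a number come from the same mouse, so the numbers pair the arrays. The median correlation of deviations within a mouse was 0.388 in LFD and -0.0689 in HFD mice. The fits were tested on simulated data.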

Additional observations from a re-analysis of the deposited data

Results flagged for a closer look

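In groups of 10 arrays, the highest or lowest value was compared with the rest by Dixon's ratio for 15 genes in 60 groups. A value far from the others was held by 9 groups, where chance gives about 1 in 20 for independent groups. The 15 genes share their arrays, so the groups are not independent and the count cannot be set against that rate. Of the 9 groups, 5 were the gastrocnemius of LFD mouse 142. That array had the lowest signals of its group for *Pfkm* (11693.9, next 13038.0), *Aldoa* (17388.5, next 19966.1), *Eno3* (14655.2, next 15726.4) and *Pygm* (9119.8, next 9914.9), and the highest for *Gbe1* (570.5, next 420.0). Its actin ratio of 1.36 lay within the range of its group. In the LFD quadriceps, mouse 141 stood highest for *Pygm* (11089.9, next 10259.1), mouse 154 for *Gys1* (1207.4, next 1058.3) and mouse 159 for *Pygl* (90.1, next 26.0). In the HFD quadriceps, mouse 145 stood highest for *Aldoa* (24234.3, next 22016.6).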

How the results depend on the processing

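None of the 10 genes was called under any alternative run: a filter of 50 or none, repeated quantile normalization, median centring, an offset of 16, a trended and robust variance, array weights, other sets of arrays, FDR alone, the ratio of means, the mouse as a block, or each mouse left out. Of 1350 recomputed values 104 had the other sign, and for none of these genes was a direction called. The smallest adjusted p was 0.0202 by limma, for *Tpi1* between the diets in the gastrocnemius with array weights, at a fold under 1.3. With the mouse as a replicate block the number of calls among the 10 stayed at 0, and 219 probe sets passed between the muscles of LFD mice and 233 of HFD mice with a fixed block. The count of other pathway genes called between the muscles in LFD mice was 1 with no filter and 1 with array weights. In HFD mice it was 4 with no filter, 1 (*Ldhb*) with a filter of 50, 1 (*Ldhb*) with an offset of 16, 5 with FDR alone, 3 with array weights (*Stbd1* added), and 1 to 3 with a mouse left out. The number of correlations past 0.05 was 11 with the actin ratio taken out, 25 without the 2 farthest mice and 32 by Spearman, against 37. The 11 include quadriceps relations, where 3 arrays stood apart in the ratio. Both alternatives for the correlations other than leaving out mice, and those for the pathway counts other than the filter and the block, were chosen after seeing the data. The causes of these shifts were not tested. Signals near background limit *Pygl*, whose gastrocnemius medians lay under the filter of 20.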
